A study of Mus musculus with 18 samples.

Results

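The 10 genes described here encode inducible brakes on the MAP kinases in CD8+ T cells: the dual specificity phosphatases *Dusp1*, *Dusp2*, *Dusp4*, *Dusp5*, *Dusp6* and *Dusp10*, and the Sprouty family genes *Spry1*, *Spry2*, *Spred1* and *Spred2*. They were chosen by name as genes of this pathway, and each symbol was matched to its Ensembl identifier in the expression tables of all 18 libraries. The tables list 45706 genes, of which 12255 passed the filter on low counts and were tested, all 10 of these genes among them. RNA was sequenced from purified CD8+ T cells of OT-I mice, whose T cell receptor transgene recognises an ovalbumin peptide. Repeat peptide stimulated cells received 10 ng/ml of this peptide every day for 5 days with IL-15 and IL-7, a culture that models T cell exhaustion, and were kept with peptide until harvest. Single peptide stimulated cells received the peptide for 48 hours and were then kept without it. From day 5 both were given DMSO or 1 µM ibrutinib, an irreversible inhibitor of the kinase BTK, for 3 days and were harvested on day 8. There were 4 libraries of repeat peptide cells with DMSO, 5 of repeat peptide cells with ibrutinib, 5 of single peptide cells with DMSO and 4 of single peptide cells with ibrutinib. All cells carried the OT-I receptor and were cultured as purified T cells, and no library comes from cells taken from an infection or a tumour.

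By the genotype entry of the labels the libraries were assigned to 6 experiments, named A to F here, and A, B, C and D each hold 1 library of all 4 groups. Experiment E holds only a repeat peptide library with ibrutinib and F only a single peptide library with DMSO. The strain entry reads wild type for every library, whereas in experiments B to E the genotype entry carries the name of a *btk* knockout. This entry differs by experiment and not by group and was used as the name of the experiment. *Btk* had 0 to 27 expected counts in any library, so its level cannot check which entry holds.

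When the T cell receptor is engaged, Ras is loaded with GTP and activates the kinases RAF, MEK and ERK in turn, and ERK enters the nucleus and switches on early response genes. Among these genes are several of its own inhibitors. Dual specificity phosphatases remove the activating phosphates from the threonine and the tyrosine of a MAP kinase, in the nucleus or in the cytosol, while Sprouty and Spred proteins sit at the membrane and restrain the steps from the receptor to RAF. The genes are therefore often read as a record of recent ERK signalling, although the encoded proteins differ in the kinase they prefer, and DUSP10 is known mainly for acting on p38 and JNK and not on ERK.

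Promoter windows, the 250 bases before the RefSeq start (GRCm38.p6), were found for 9 of the 10 genes, and *Dusp4* is named only. All 250 bases were searched on both strands for letters bound by factors that ERK or calcium signals act on, namely the CRE TGACGTCA, the CArG box of SRF, the EGR motif GCGNGGGCG, the ETS motif CCGGAAGT and the AP-1 motif TGANTCA. The 3 windows that hold a match follow, with the matched letters in capitals, together with that of *Spry2*, the gene with the smallest p-value of the 10 between repeat and single peptide stimulated cells. Bases that an annotated exon of the gene itself covers are not printed, so that of *Dusp1* 203 bases and of *Dusp5* 214 bases are shown. The *Dusp1* window is chr17:26508520-26508722 on the minus strand, the *Dusp2* window chr2:127335909-127336158 on the plus strand, the *Dusp5* window chr19:53528895-53529108 on the plus strand and the *Spry2* window chr14:105896820-105897069 on the minus strand.
Dusp1: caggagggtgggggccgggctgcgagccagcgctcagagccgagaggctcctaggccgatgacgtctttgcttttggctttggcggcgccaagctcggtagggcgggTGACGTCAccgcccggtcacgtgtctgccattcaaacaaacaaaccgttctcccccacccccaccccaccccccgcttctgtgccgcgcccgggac
Dusp2: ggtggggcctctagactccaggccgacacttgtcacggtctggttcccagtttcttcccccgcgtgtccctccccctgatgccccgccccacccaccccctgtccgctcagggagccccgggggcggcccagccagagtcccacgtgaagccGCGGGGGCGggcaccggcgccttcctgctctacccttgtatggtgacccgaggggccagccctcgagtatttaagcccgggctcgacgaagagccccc
Dusp5: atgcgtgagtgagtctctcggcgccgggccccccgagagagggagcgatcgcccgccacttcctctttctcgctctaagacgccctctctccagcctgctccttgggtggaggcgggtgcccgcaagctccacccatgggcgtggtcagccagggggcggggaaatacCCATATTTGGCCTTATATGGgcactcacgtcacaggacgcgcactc
Spry2: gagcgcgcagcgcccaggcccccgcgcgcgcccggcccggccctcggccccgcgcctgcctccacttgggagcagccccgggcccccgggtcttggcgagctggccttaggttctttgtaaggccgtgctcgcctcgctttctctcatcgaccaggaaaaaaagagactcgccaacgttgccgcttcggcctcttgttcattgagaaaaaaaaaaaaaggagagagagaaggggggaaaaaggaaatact
*Dusp1* holds a CRE at 143 to 136 bases before its start, a motif found in 1.55% of 32851 windows of 250 bases. *Dusp5* holds 2 CArG boxes side by side, at 82 to 73 and 72 to 63 bases before its start, and 1.47% of the windows hold at least 1 such box. *Dusp2* holds an EGR motif at 98 to 90 bases before its start (4.7% of windows). The ETS motif (2.88% of windows) and the AP-1 motif (6.75%) were found in none of the 9 windows, and the windows of *Dusp6*, *Dusp10*, *Spry1*, *Spry2*, *Spred1* and *Spred2* hold none of the 5 motifs. A match describes the letters only, and factor binding was not measured.

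Expected counts in genes summed to between 23445922 and 51995372 per library (median 27420966). CD8 T cell markers were high in every library, with *Cd8a* at 312 to 677 TPM (a level scaled for gene length and for the depth of the library), whereas 13 of 22 markers of other cell types did not exceed 1 TPM in any library, among them *Cd4*, *Ms4a1*, *Csf1r* and *Clec9a*. *Cd79b*, a B cell marker, had 1.15 to 2.28 TPM in repeat and 3.12 to 7.08 TPM in single peptide cells with DMSO (0.96 to 4.09 and 3.80 to 5.85 TPM with ibrutinib). *Cd14*, a myeloid marker, had 1.10 to 2.92 and 0 to 0.04 TPM in the same groups (0.26 to 1.00 and 0 to 0.03 TPM with ibrutinib). *Lyz2*, of myeloid cells, reached 5.92 TPM and *Itgax*, of dendritic cells, 4.08 TPM, with overlapping ranges in the 4 groups. Summed CD4 T cell markers, mostly *Zbtb7b*, were 15.4 to 20.8 TPM in repeat and 1.87 to 11.2 TPM in single peptide cells with DMSO, and summed NK cell markers, mostly *Klrb1c*, were 2.64 to 11.4 and 0.59 to 2.63 TPM in the same groups. With ibrutinib the CD4 T cell and NK cell sums were 5.38 to 16.1 and 2.69 to 25.6 TPM in repeat peptide cells and 2.54 to 12.3 and 1.22 to 2.73 TPM in single peptide cells. The part of these markers in the results was not tested. The libraries of experiment C were high in several early response genes in all 4 groups, as described with *Dusp1* and *Dusp6* below. In repeat peptide cells with ibrutinib the library of experiment E was high in some of them as well. In these bulk libraries fewer cells that express a gene and less RNA per cell cannot be told apart. The labels do not say whether the libraries of a group come from separate mice, so p-values measure only the spread between these libraries, which may be technical.

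*Dusp2* (ENSMUSG00000027368, chr2:127336159-127338376), a nuclear phosphatase of lymphoid cells that acts on ERK and p38, had the highest level of the 10 genes in each of the 4 groups. Its level in repeat peptide cells with DMSO was 118 ± 13.6 TPM (SD, n = 4), above that of 91.1% of the genes tested. *Dusp5* (ENSMUSG00000034765, chr19:53529109-53542431), the nuclear phosphatase specific for ERK, came second in each group, at 66.1 ± 16.6 TPM in repeat peptide cells with DMSO. *Spry2* (ENSMUSG00000022114, chr14:105891947-105896819) was the third in the repeat peptide groups and only the eighth in the single peptide groups. In repeat peptide cells with DMSO the ranges of *Spry2* (44.9 to 62.4 TPM) and *Dusp5* (48.8 to 83.3 TPM) overlapped, as did those of *Dusp6* (20.0 to 40.5 TPM) and *Dusp4* (11.2 to 38.1 TPM). At the lower end, *Spred1* (ENSMUSG00000027351, chr2:117121374-117182279) had 3.83 ± 1.06 TPM and *Spry1* (ENSMUSG00000037211, chr3:37639947-37644598) 5.46 ± 2.11 TPM in that group. Summed over the 10 genes, the level was 272 to 375 TPM in repeat peptide cells with DMSO, 173 to 280.0 TPM with ibrutinib, and 75.3 to 155 TPM in single peptide cells with DMSO, where the range with ibrutinib was 76.2 to 127 TPM.

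**Figure D1:**
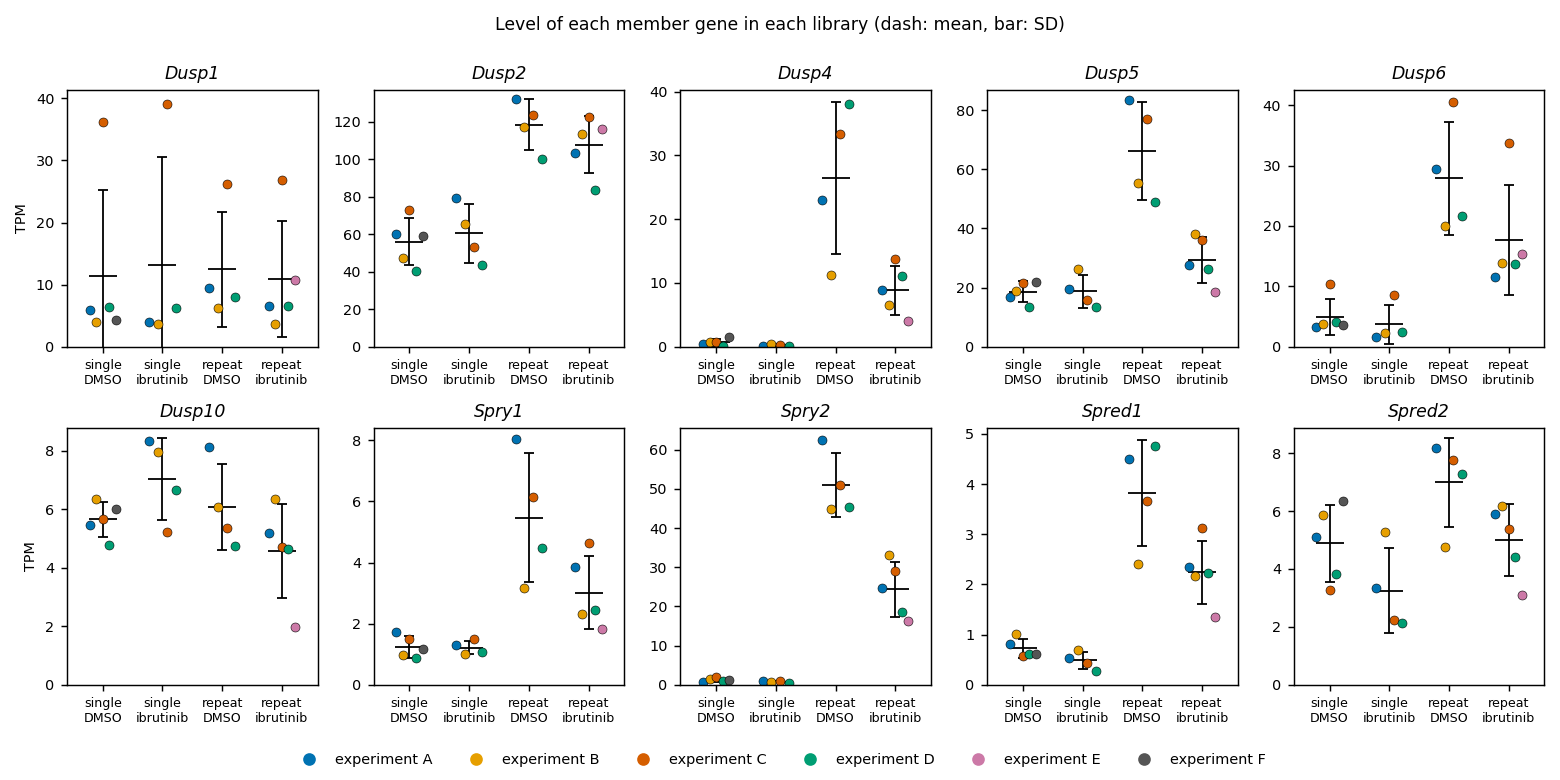
TPM of the 10 genes in each of the 18 libraries, by group on the horizontal axis and coloured by experiment, with the group mean as a dash and the SD as a bar (the lower bars of *Dusp1* in single peptide cells are cut off at 0). *Spry2*, *Dusp4* and *Dusp5* are high in repeat peptide cells with DMSO and lower with ibrutinib, while *Dusp1* and *Dusp6* are highest in the experiment C library of every group.

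Repeat peptide stimulated cells were compared with single peptide stimulated cells under DMSO. The 2 groups differ both in the days of stimulation and in the peptide kept until harvest, and these cannot be told apart. Of the 10 genes 7 rose, by 1.89-fold to 36.7-fold, and none fell. *Spry2* and *Dusp4* went from at most 1.87 TPM in any single peptide library to at least 11.2 TPM in every repeat peptide library, and *Dusp1* and *Dusp10* were not called. Genes were called where the adjusted p-value of edgeR's quasi-likelihood test, adjusted by Benjamini-Hochberg over all genes tested, was below 0.05, the mean normalized count was at least 50 and the absolute log2 fold change was above 0.2. This comparison called 47.0% of all genes tested, 22.8% of all as higher and 24.2% of all as lower in repeat peptide cells, a high background for the count of 7. Over all 10 genes the median log2 fold change was 1.79, that of all genes tested 0.00. The share of all genes whose libraries did not overlap was not taken for this comparison.

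*Spry2*, an adaptor that holds back Ras activation, had 62.4, 44.9, 51.0 and 45.5 TPM in repeat peptide cells with DMSO of experiments A, B, C and D. In single peptide cells with DMSO its level was 0.61, 1.44, 1.87, 0.95 and 1.15 TPM in experiments A, B, C, D and F. The groups were far apart, with the lowest repeat library well above the highest single library. The log2 fold change was 5.20 (SE 0.256, adjusted p = 6.2e-11), which placed *Spry2* at rank 8 of all genes by p-value in this comparison. *Dusp4* (ENSMUSG00000031530, chr8:34807297-34819894), a nuclear phosphatase for ERK and JNK, had 23.04, 11.2, 33.3 and 38.1 TPM in repeat peptide cells of experiments A to D against 0.44, 0.71, 0.72 and 0.07 TPM in single peptide cells of the same experiments and 1.45 TPM in F. It rose by a log2 fold change of 5.18 (SE 0.559, adjusted p = 5.97e-07), with no overlap. As few as 6 expected counts lay behind the lowest single peptide library, which sets the precision of that fold change.

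Both phosphatases specific for ERK rose as well. *Dusp5* had 83.3, 55.4, 77.1 and 48.8 TPM in repeat peptide cells with DMSO of experiments A to D, and 16.8, 18.9, 21.5, 13.4 and 22.03 TPM in single peptide cells of experiments A, B, C, D and F. Every repeat library lay above every single library, with a log2 fold change of 1.65 (SE 0.161, adjusted p = 1.87e-07). An annotated antisense gene, AC137853.2, overlaps the start of *Dusp5* and was not counted in the tables. The library kit keeps the strand, but the strand setting of the counting is not given in the sources used here. *Dusp6* (ENSMUSG00000019960, chr10:99263231-99267489), the cytosolic phosphatase, had 29.4, 20.0, 40.5 and 21.6 TPM in repeat peptide cells and 3.25, 3.72, 10.3, 4.09 and 3.51 TPM in single peptide cells of the same experiments in the same order. It rose by a log2 fold change of 2.26 (SE 0.519, adjusted p = 0.00129), and experiment C gave the highest library of both groups. Without experiment C the log2 fold change was 2.52 (adjusted p = 6.74e-06).

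*Spred1*, which brings the Ras inhibitor neurofibromin to the membrane, rose from 0.73 ± 0.19 (SD, n = 5) to 3.83 ± 1.06 TPM (SD, n = 4), a log2 fold change of 2.11 (SE 0.223, adjusted p = 4.75e-07). *Spry1*, the close relative of *Spry2*, rose from 1.24 ± 0.36 to 5.46 ± 2.11 TPM, a log2 fold change of 1.94 (SE 0.291, adjusted p = 2.4e-05). In neither gene did the groups overlap, and neither gene reached the level of *Spry2*. *Dusp2* rose from 40.4 to 73.0 TPM in the 5 single peptide libraries to 100.1 to 132 TPM in the 4 repeat peptide libraries, by a log2 fold change of 0.92 (SE 0.180, adjusted p = 0.000334). *Spred2* (ENSMUSG00000045671, chr11:19924375-20024026), whose product acts like that of *Spred1*, had 4.76 to 8.17 against 3.26 to 6.35 TPM, overlapping ranges, and a log2 fold change of 0.39 (SE 0.174, adjusted p = 0.0684). With the experiment as a block in the fit its log2 fold change was 0.50 and it was called (adjusted p = 0.0159). *Spred2* was also called without repeat DMSO replicate B (adjusted p = 0.0386) or without single DMSO replicate F (adjusted p = 0.0324).

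*Dusp10* (ENSMUSG00000039384, chr1:184013302-184075636) had 4.75 to 8.13 TPM in repeat and 4.78 to 6.34 TPM in single peptide cells with DMSO. The fitted log2 fold change was -0.08 (95% interval -0.43 to 0.28, adjusted p = 0.726). *Dusp1* (ENSMUSG00000024190, chr17:26505590-26562128), a nuclear phosphatase for p38, JNK and ERK, had a log2 fold change of -0.16 with a 95% interval of -2.04 to 1.73, which includes severalfold changes in either direction (adjusted p = 0.891). The annotated *Dusp1* gene overlaps *Ergic1* on the other strand at its 5′ end. This overlap begins at position 26561489, far upstream of the RefSeq start at 26508472 that was used for the promoter window.

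**Figure D2:**
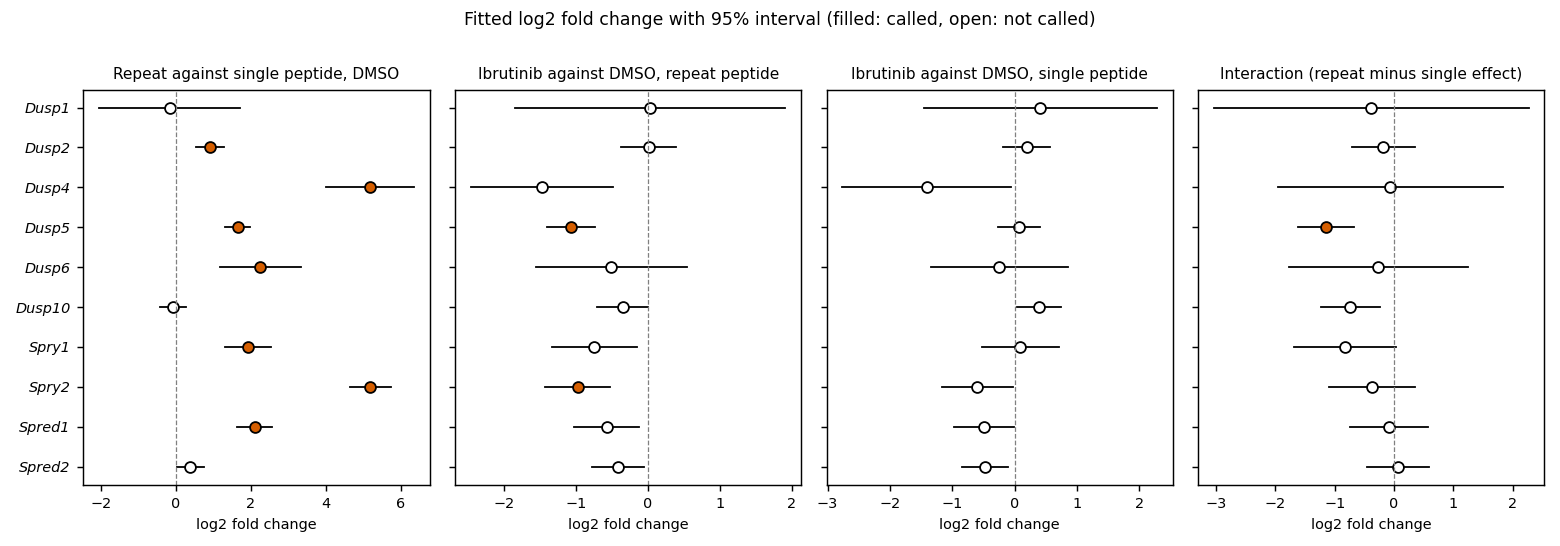
Fitted log2 fold changes (horizontal axis, with different ranges in each panel) of the 10 genes in the 4 comparisons, with 95% intervals; filled points were called and open points were not. Of the 10 genes 7 are filled on the positive side for repeat against single peptide, *Dusp5* and *Spry2* are filled on the negative side for ibrutinib in repeat peptide cells, none is filled in single peptide cells and *Dusp5* alone is filled for the interaction.

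Ibrutinib in repeat peptide stimulated cells was compared with DMSO to ask whether the inhibitor lowered these genes while peptide was still present. *Dusp5* and *Spry2* fell, from means of 66.1 and 51.0 TPM to 29.4 and 24.4 TPM, the means of single peptide cells with DMSO being 18.5 and 1.20 TPM. *Dusp4* had the largest fitted fold change but also wide scatter and was not called, and *Dusp2* and *Dusp1* had log2 fold changes of 0.01 and 0.03. The 2 called genes, both lower, stand beside 5.92% of all genes called in this comparison and 1.92% called as lower. Before adjustment, 6 of the 10 genes had p below 0.05, as did 21.6% of all genes. The log2 fold change was below 0 for 8 of the 10 genes with a median of -0.54, against a median of 0.00 over all genes tested. The libraries with DMSO are the same as those set against single peptide cells above, so the 2 comparisons are not independent of each other.

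*Dusp5* had 27.7, 38.1, 36.1, 26.2 and 18.6 TPM with ibrutinib in experiments A, B, C, D and E. All 5 libraries lay below the lowest DMSO library, which had 48.8 TPM. *Dusp5* was 2.11-fold lower, a log2 fold change of -1.07 (SE 0.160, 95% interval -1.41 to -0.74, adjusted p = 0.000516). Compared with the DMSO library of the same experiment, the differences in A, B, C and D were -1.55, -0.80, -0.97 and -0.79 on the log2 scale of CPM, counts scaled for library depth. The ibrutinib range of 18.6 to 38.1 TPM still overlapped the 13.4 to 22.03 TPM of single peptide cells with DMSO, through the library of experiment E. In normalized counts the overlap came through the library of experiment A instead (1327, against at most 1346 in single peptide cells with DMSO). *Dusp5* was called in all 9 fits that each left out 1 library of these groups (adjusted p from 0.000345 to 0.00347) and in all 12 other alternatives.

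*Spry2* had 24.7, 33.2, 29.1, 18.5 and 16.4 TPM with ibrutinib in experiments A, B, C, D and E. No library reached the lowest DMSO level of 44.9 TPM, and none came near the highest single peptide level of 1.87 TPM. *Spry2* was 1.97-fold lower, a log2 fold change of -0.98 (SE 0.215, 95% interval -1.43 to -0.53, adjusted p = 0.00965). Within experiments A to D the differences were -1.31, -0.70, -0.69 and -1.19 in log2 CPM. The call was kept in all 9 fits without 1 library (adjusted p from 0.00955 to 0.0325). *Dusp5* and *Spry2* were the 2 of the 10 genes whose ibrutinib and DMSO libraries did not overlap, which 5.43% of all genes did in this direction.

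The remaining genes that were lower by fitted fold change showed more scatter. *Dusp4* had 8.85, 6.52, 13.8, 11.1 and 4.04 TPM with ibrutinib in experiments A to E, against 23.04, 11.2, 33.3 and 38.1 TPM with DMSO in A to D. In A to D each ibrutinib library lay below the DMSO library of its own experiment, with differences of -1.67 to -1.05 in log2 CPM. The group ranges overlapped, the DMSO library of experiment B (11.2 TPM) lying below the ibrutinib library of experiment C (13.8 TPM). The log2 fold change was -1.48 (SE 0.470, adjusted p = 0.0676), and *Dusp4* was called without repeat DMSO replicate B (adjusted p = 0.0428) or without repeat ibrutinib replicate C (adjusted p = 0.0483), with only the compared groups in the fit (adjusted p = 0.0428) and by limma on log2(TPM + 1) (adjusted p = 0.0157). *Spry1* had 1.81 to 4.65 TPM with ibrutinib and 3.16 to 8.04 TPM with DMSO, a log2 fold change of -0.74 (SE 0.282, adjusted p = 0.125), and was called without repeat ibrutinib replicate C (adjusted p = 0.0401). *Dusp6* had 11.6, 13.8, 33.8, 13.7 and 15.3 TPM with ibrutinib in experiments A to E, so that the experiment C library lay above 3 of the 4 DMSO libraries. Its log2 fold change was -0.51 (SE 0.501, adjusted p = 0.597), or -0.62 without experiment C (adjusted p = 0.214).

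When the experiment entered the fit as a block, which compares libraries of the same experiment, 4 of the 10 genes were called, all lower, against 13.8% of all genes. *Dusp6* (log2 fold change -0.75, adjusted p = 0.0464) and *Spry1* (-0.71, adjusted p = 0.0145) joined *Dusp5* and *Spry2*, while *Dusp4* had an adjusted p of 0.0510. In both added genes the ibrutinib library was the lower one in 4 of 4 experiments, with differences of -1.301 to -0.14 in log2 CPM for *Dusp6* and -1.04 to -0.26 for *Spry1*. How many of all genes were lower in 4 of 4 experiments was not counted. *Spred1* was lower with ibrutinib in 4 of 4 experiments too, at 1.34 to 3.12 against 2.40 to 4.75 TPM, with a log2 fold change of -0.57 (SE 0.215, adjusted p = 0.122) and no call with the block (adjusted p = 0.135). *Spred2* had a log2 fold change of -0.41 (SE 0.174, adjusted p = 0.168) and *Dusp10* one of -0.35 (SE 0.168, adjusted p = 0.237). Neither was called in any of the alternatives run.

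*Dusp2* had 83.6 to 123 TPM with ibrutinib and 100.1 to 132 TPM with DMSO, ranges that overlapped. The log2 fold change was 0.01 with a 95% interval of -0.37 to 0.39 (adjusted p = 0.982). A fall as large as that fitted for *Dusp5* lies outside this interval. The ibrutinib library of experiment E had 4982 normalized counts of *Dusp2*, against 2665 to 3694 in A to D. In TPM, however, library E did not stand out, with 115.75 against 83.57 to 122.5 in A to D. Why the 2 scales differ for this library was not tested. Without library E the log2 fold change of *Dusp2* was -0.17 (adjusted p = 0.601). *Dusp1* had a log2 fold change of 0.03 with a 95% interval of -1.85 to 1.91 (adjusted p = 0.989), an interval that includes the fold changes of *Dusp5* and *Spry2*.

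**Figure D3:**
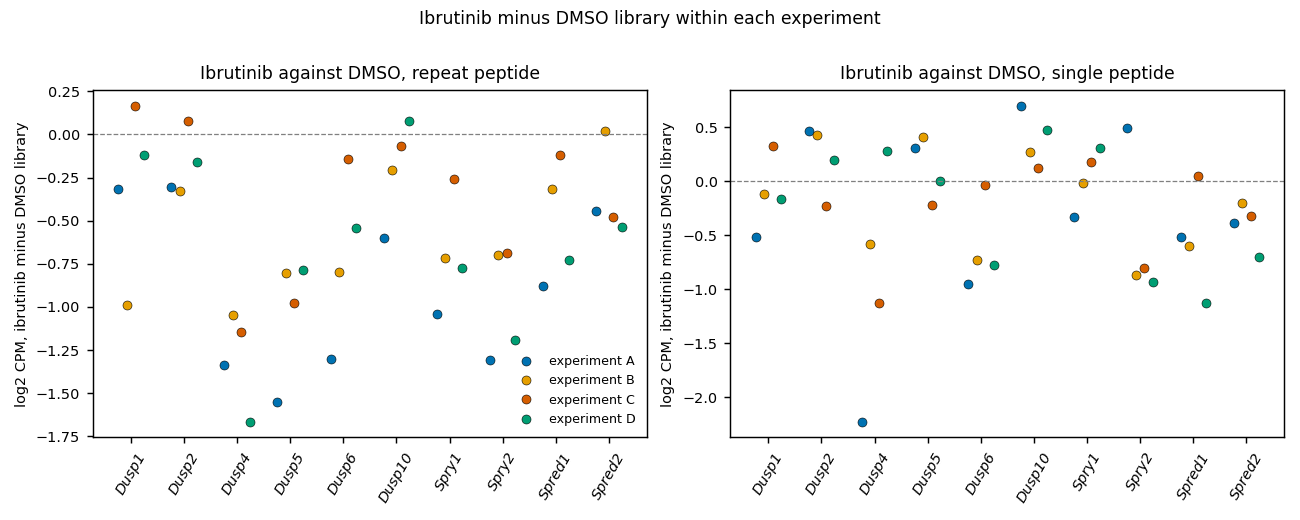
Difference of the ibrutinib and the DMSO library of the same experiment in log2 CPM (vertical axis, with different ranges in each panel) for the 10 genes, in repeat peptide cells on the left and single peptide cells on the right, coloured by experiment A to D. In repeat peptide cells *Dusp4*, *Dusp5*, *Dusp6*, *Spry1*, *Spry2* and *Spred1* lie below 0 in 4 of 4 experiments, and in single peptide cells *Dusp5* lies between -0.22 and 0.41. The share of all genes below 0 in 4 of 4 experiments was not taken.

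In single peptide stimulated cells the same treatment was tested where no peptide remained in the culture. None of the 10 genes was called by DESeq2, by limma or by the edgeR fit of all 18 libraries without a block. That edgeR fit called 3.04% of all genes. In it 5 of the 10 had an unadjusted p-value under 0.05, as did 13.5% of all genes. Those 5 were *Spred2*, *Dusp10*, *Spry2*, *Dusp4* and *Spred1*, with *Dusp10* above 0 and the others below 0. *Dusp5* had 19.5, 26.2, 15.7 and 13.5 TPM with ibrutinib in experiments A to D, with a mean of 18.7 ± 5.58 TPM (SD, n = 4) against 18.5 ± 3.55 TPM (SD, n = 5) with DMSO. The groups overlapped, the highest library being that of experiment B with ibrutinib. Its log2 fold change was 0.07 (SE 0.161, 95% interval -0.26 to 0.41, adjusted p = 0.917).

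The Sprouty and Spred genes were at low levels in these cells. *Spry2* had 0.82, 0.81, 0.90 and 0.49 TPM with ibrutinib in experiments A to D, against 0.61 to 1.87 TPM with DMSO, and a log2 fold change of -0.60 (SE 0.270, adjusted p = 0.322). It was lower with ibrutinib in 3 of 4 experiments, A being the exception. *Spred2* had 2.12 to 5.28 against 3.26 to 6.35 TPM and was lower in 4 of 4 experiments, with a log2 fold change of -0.48 (SE 0.177, adjusted p = 0.195). It was called without single ibrutinib replicate B (adjusted p = 0.0464). *Spred1* had a log2 fold change of -0.49 (SE 0.229, adjusted p = 0.360) and *Spry1* one of 0.09 (95% interval -0.53 to 0.71, adjusted p = 0.951).

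*Dusp10* was higher with ibrutinib in 4 of 4 single peptide experiments, by 0.12 to 0.70 in log2 CPM, with a log2 fold change of 0.39 (SE 0.167, adjusted p = 0.294). Its normalized counts, 443 to 535 with ibrutinib and 319 to 408 with DMSO, did not overlap, whereas its TPM did. The shares of all genes that separated in this way or were higher in 4 of 4 experiments were not taken. *Dusp4* rested on 4 to 31 expected counts per ibrutinib library and had a log2 fold change of -1.42 with a 95% interval of -2.76 to -0.07 (adjusted p = 0.330). *Dusp6* was lower with ibrutinib in 4 of 4 experiments, with differences of -0.95 to -0.03 in log2 CPM. The fitted log2 fold change of *Dusp6* was -0.24 (SE 0.522, adjusted p = 0.915), or -0.77 without experiment C (adjusted p = 0.292). With the experiment as a block it was -0.54 (adjusted p = 0.207), and with the block and without experiment C *Dusp6* was called (-0.81, adjusted p = 0.0258). *Dusp2* and *Dusp1* had log2 fold changes of 0.19 (SE 0.181, adjusted p = 0.748) and 0.41 (SE 0.886, adjusted p = 0.916).

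Whether ibrutinib acted differently on the 2 kinds of cells was tested as an interaction, the log2 fold change in repeat peptide cells minus that in single peptide cells. *Dusp5* was the 1 gene of the 10 called, beside 1.26% of all genes. The difference was -1.15 (SE 0.226, 95% interval -1.62 to -0.67, adjusted p = 0.0126), the effect being the lower one in repeat peptide cells. The call was kept in all 18 fits without 1 library (adjusted p from 0.00772 to 0.0419) and with the block (adjusted p = 0.00104), but not by limma on log2(TPM + 1), where the adjusted p was 0.125 at a difference of -1.15. *Dusp10* had an interaction of -0.74 (SE 0.237, adjusted p = 0.162) and *Spry1* one of -0.83 (SE 0.408, adjusted p = 0.457).

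For *Spry2* the difference between the effects was -0.37 (95% interval -1.10 to 0.35, adjusted p = 0.797), so a difference in effect between repeat and single peptide cells was not detected for it. For *Dusp4* (-0.06, 95% interval -1.96 to 1.84) and *Dusp6* (-0.26, 95% interval -1.78 to 1.25) the intervals were wide. Narrower ones were found for *Spred2* (0.06, 95% interval -0.45 to 0.58), *Spred1* (-0.09, 95% interval -0.75 to 0.58) and *Dusp2* (-0.18, 95% interval -0.72 to 0.36).

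Levels of *Dusp1* followed the experiment. It had 26.2 and 26.9 TPM in the repeat peptide libraries of experiment C with DMSO and ibrutinib and 36.1 and 39.2 TPM in the single peptide ones. In the other 14 libraries it had between 3.6 and 10.7 TPM, without overlap. Experiment C was above the mean of the other libraries of its group by 1.76 to 3.47 in log2 CPM for *Dusp1* and by 0.77 to 2.37 for *Dusp6*. These 2 of the 10 genes (20%) were highest in experiment C in all 4 groups, as were 1.80% of all genes tested. Of 17 ERK target genes the same held for *Egr1*, *Fos*, *Fosb* and *Phlda1*. *Fos* was above the mean of the other libraries of its group by 2.43 to 6.22 and *Fosb* by 3.26 to 6.41 in log2 CPM. In experiment C *Dusp5* exceeded the mean of the other libraries of its group by 0.05 to 0.43 and *Dusp2* by 0.08 to 0.63. The experiment C library was the highest of its group in 3 groups for *Dusp5* and in 1 for *Dusp2*. In repeat peptide cells with ibrutinib the library of experiment E was also high in *Fos*, *Fosb*, *Egr1* and *Dusp1*. Less the mean over all libraries, *Fos* stood at 2.80 in E and 3.39 in C, against -1.88 to -1.34 in A, B and D. Normalized counts of *Dusp1* were 632 in E and 1122 in C, against 135 to 287 in A, B and D. Without library E the log2 fold change of *Dusp1* there was -0.085. The labels give no difference in handling for experiment C.

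**Figure D4:**
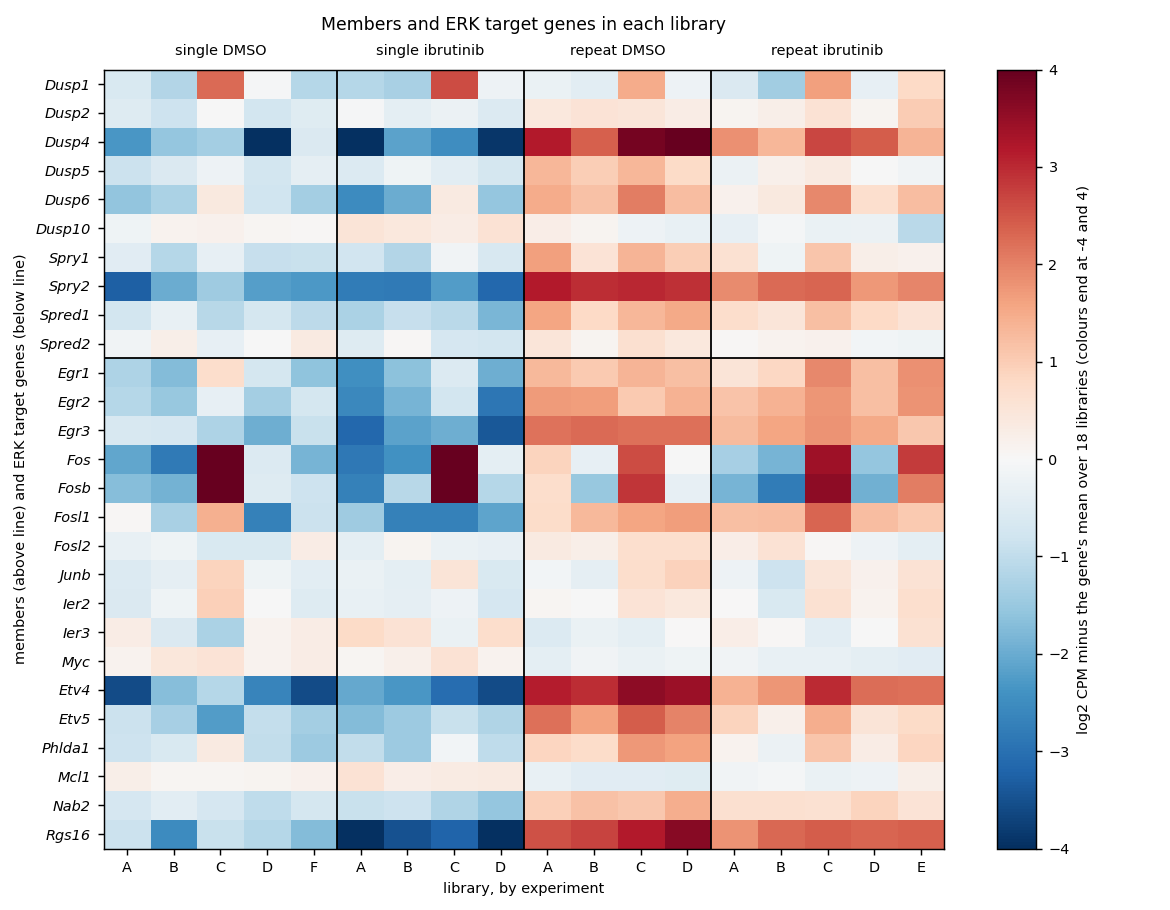
Log2 CPM of the 10 genes (above the line) and of 17 ERK target genes (below it) in the 18 libraries, less the mean of each gene over all libraries, with libraries by group and experiment on the horizontal axis; colours end at -4 and 4. The repeat peptide libraries are high for *Dusp4*, *Spry2*, *Etv4* and *Rgs16*, and the 4 experiment C libraries are high for *Dusp1*, *Dusp6*, *Fos* and *Fosb*.

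Other genes of the pathway were described by lists, whose counts stand beside 22.8% of all genes called as higher and 24.2% as lower in repeat than in single peptide cells with DMSO. With ibrutinib in repeat peptide cells 4.01% of all genes were called as higher and 1.92% as lower, and in single peptide cells 2.69% were called as lower. Of 6 other MAP kinase phosphatases tested, 3 were higher and 1 was lower in repeat than in single peptide cells with DMSO, and 2 fell with ibrutinib in repeat peptide cells. *Dusp14* (ENSMUSG00000018648), a small phosphatase that restrains T cell receptor signalling, followed the pattern of *Spry2* at lower counts. Its mean normalized count was 259 ± 49.1 (SD, n = 4) under DMSO and 115 ± 40.8 (SD, n = 5) under ibrutinib in repeat peptide cells, and 20.8 ± 6.50 (SD, n = 5) under DMSO in single peptide cells. Ibrutinib lowered it by a log2 fold change of -1.17 (SE 0.272, adjusted p = 0.0136), a call lost without repeat DMSO replicate D (adjusted p = 0.0647). *Dusp16* (ENSMUSG00000030203), which acts on JNK and p38, fell by 0.57 on the log2 scale in repeat peptide cells (SE 0.168, adjusted p = 0.0497) and by 0.64 in single peptide cells (SE 0.173, adjusted p = 0.0489). The call of *Dusp16* in repeat peptide cells was lost in each of the 9 fits without 1 library, with adjusted p from 0.0541 to 0.196, and in 7 of the 12 other alternatives, limma among them. Neither *Spry4* nor *Spred3* was called in any comparison, the mean count of *Spry4* being below the minimum, and *Dusp8* was at 12 expected counts or fewer.

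Among 17 ERK target genes tested, 9 rose and 2 fell in repeat against single peptide cells with DMSO, where 47.0% of all genes were called (median log2 fold change 1.60 against 0.00 over all genes), and 2 fell with ibrutinib in repeat peptide cells (median -0.07). *Etv5* (ENSMUSG00000013089), an ETS family transcription factor induced by ERK, had a mean normalized count of 241 ± 56.8 (SD, n = 4) under DMSO and 99.4 ± 34.5 (SD, n = 5) under ibrutinib. The fitted change was -1.28 on the log2 scale (SE 0.289, adjusted p = 0.0113), and the call was lost without repeat DMSO replicate C (adjusted p = 0.0561). *Nab2* (ENSMUSG00000025402), a corepressor of EGR factors, fell by 0.50 (SE 0.142, adjusted p = 0.0403), a call kept in 2 of the 9 fits without 1 library (adjusted p from 0.0267 to 0.206), those without repeat DMSO replicate A and without repeat ibrutinib replicate D. *Egr1* and *Egr2* had risen by 1.83 and 2.44 on the log2 scale with repeat peptide. With ibrutinib in repeat peptide cells their log2 fold changes were 0.13 (SE 0.442, adjusted p = 0.896) and 0.01 (SE 0.323, adjusted p = 0.988). The 95% intervals, -0.79 to 1.06 and -0.665 to 0.69, include changes in either direction. In log2 CPM less the mean over all libraries, *Egr1* with ibrutinib stood at 1.83 in E and 1.91 in C. It stood at 0.53 to 1.205 in A, B and D. *Egr2* stood at 1.79 in E and 1.76 in C, against 1.16 to 1.39 in A, B and D. For both genes ibrutinib lay below DMSO in A, B and D (*Egr1* in D only 1.205 against 1.207) and above it in C. In single peptide cells 2 of the 17 fell, namely *Egr3* by 1.56 (SE 0.292, adjusted p = 0.00698) and *Rgs16* by 2.67 (SE 0.393, adjusted p = 0.00185).

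Of 13 genes of the cascade from Ras to ERK 3 were higher and 1 was lower in repeat against single peptide cells, *Mapk3*, which encodes ERK1, rising by a log2 fold change of 1.15 (SE 0.113, adjusted p = 1.94e-07). With ibrutinib in repeat peptide cells 1 of the 13 was called. This was *Rras2* (ENSMUSG00000055723), a Ras related GTPase, with a log2 fold change of 0.49 (SE 0.134, adjusted p = 0.0356) and a call kept in 3 of 9 fits without 1 library (adjusted p from 0.0159 to 0.131). It was lost without repeat DMSO replicate A, C or D and without repeat ibrutinib replicate A, D or E. Over the 13 genes the median log2 fold change was 0.07 between repeat and single peptide cells and -0.05 with ibrutinib.

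Of 12 activators and adaptors of Ras tested, 9 were lower and 1 was higher in repeat than in single peptide cells with DMSO, against 24.2% and 22.8% of all genes, while with ibrutinib in repeat peptide cells 3 rose and none fell. *Rasgrp2* (ENSMUSG00000032946), an exchange factor for Rap1 and Ras, had mean levels of 175 ± 54.0 TPM (SD, n = 4) under DMSO and 335 ± 83.7 TPM (SD, n = 5) under ibrutinib, against 624 ± 97.4 TPM (SD, n = 5) in single peptide cells under DMSO. It rose with ibrutinib by a log2 fold change of 1.05 (SE 0.176, adjusted p = 0.00135). *Gab3* (ENSMUSG00000032750), an adaptor, rose by 1.42 (SE 0.236, adjusted p = 0.00135) and *Lat* (ENSMUSG00000030742), the scaffold of the T cell receptor signal, by 0.41 (SE 0.0927, adjusted p = 0.0116), a call lost without repeat DMSO replicate C (adjusted p = 0.0531).

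Among 10 Ras GTPase activating proteins, which switch Ras off, 3 were higher and 3 lower in repeat against single peptide cells with DMSO, and 2 rose with ibrutinib in repeat peptide cells. *Rasa3* (ENSMUSG00000031453) rose by 1.22 (SE 0.169, adjusted p = 0.000315), from 65.6 ± 12.8 to 144 ± 48.6 TPM, and *Rasal3* (ENSMUSG00000052142) by 0.48 (SE 0.128, adjusted p = 0.0313), a call kept in 4 of 9 fits without 1 library (adjusted p from 0.0142 to 0.113) and lost without repeat DMSO replicate A, C or D or repeat ibrutinib replicate A or B. *Rasa3* was kept in all 9 such fits. Of 10 p38 and JNK pathway kinases 1 rose with ibrutinib in repeat peptide cells, *Mapk11* (ENSMUSG00000053137), which encodes p38 beta, by 0.90 (SE 0.217, adjusted p = 0.0167). Its call was lost without repeat DMSO replicate C (adjusted p = 0.0705), repeat DMSO replicate D (adjusted p = 0.0642) or repeat ibrutinib replicate A (adjusted p = 0.0516). *Mapk11* was also lost with only the compared groups in the fit (adjusted p = 0.0616) and by limma on log2(TPM + 1) and log2(TPM + 0.1) (adjusted p = 0.149 and 0.160). By limma with either pseudocount *Rras2*, *Rasal3*, *Lat*, *Nab2* and *Dusp16* lost their calls too, with adjusted p from 0.162 to 0.403, and with only the compared groups *Rras2* (adjusted p = 0.0822) and *Rasal3* (adjusted p = 0.0800) did. Without experiment C, *Dusp16*, *Rras2*, *Lat*, *Rasal3* and *Nab2* lost their calls with ibrutinib in repeat peptide cells, with adjusted p from 0.0745 to 0.166.

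For each of the 10 genes, the protein-coding genes most like it over the 18 libraries were taken by Pearson's r of log2 CPM among 11568 genes tested. The 18 libraries share groups and experiments, and r describes these libraries only. *Spry2* was most like *Chst2* (r = 0.989) and *Irf5* (r = 0.986), and *Dusp4* like *Inppl1* (r = 0.985) and *Zbtb32* (r = 0.979). *Dusp1* was most like *Fos* (r = 0.957) and *Fosb* (r = 0.951), and *Dusp6* like *Egr1* (r = 0.956) and *Slc29a1* (r = 0.955). The genes nearest to *Dusp5* were *Ergic1* (r = 0.934) and *Mrc2* (r = 0.932), and *Ergic1* is also the gene that overlaps *Dusp1*. *Spry1* stood nearest to *Synpo* (r = 0.960) and *Zmpste24* (r = 0.952), and *Spred1* to *Ocln* (r = 0.976) and *Mfsd13a* (r = 0.975). *Spred2* was nearest to *Malt1* (r = 0.937) and *Dusp16* (r = 0.891), and *Dusp2* to *Fbxo4* (r = 0.928) and *Adprh* (r = 0.915). The lowest values were those of *Dusp10*, with *Angel1* (r = 0.866) and *Ythdf1* (r = 0.841).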

How the data were processed

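Poly(A) RNA of 18 libraries was sequenced as paired reads with a directional kit. The authors trimmed the reads with Trim Galore, aligned them to GRCm38 with STAR and estimated gene levels with RSEM 1.3.1, and deposited for each library a table of expected counts (estimated, not always whole) and TPM values per gene. The deposited counts were rounded to whole numbers. The effective lengths in the deposited tables served as an offset in 1 alternative. Other columns of the tables were not used.

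Protein-coding and lncRNA genes of GENCODE M21 (98.5% of counts) were filtered with filterByExpr, scaled by TMM and tested in 1 fit of the 4 groups over all 18 libraries with edgeR 4.0.16 (glmQLFit, glmQLFTest, R 4.3.3) and Benjamini-Hochberg adjustment over 12255 genes. Calls needed an adjusted p below 0.05, a mean count after scaling of 50 or more, and a log2 fold change beyond 0.2 in either direction. Log2 CPM used a prior count of 2. DESeq2 1.42.0 and limma 3.58.1, the latter on log2(TPM + 1) and log2(TPM + 0.1), were alternatives, together with size factors, no filter, no minimum mean count, all gene types, only the compared groups, each library left out, the experiment as a block, and, added after the data were seen, no experiment C. The fit was tested on simulated data.

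The 10 genes, the pathway lists and the tests were chosen with earlier results of these data known. From each list at most 4 called genes were named, by the smallest p with ibrutinib in repeat peptide cells. Deviations from the group means correlated above 0.1 in 24 of 24 pairs of libraries of the same experiment (0.160 to 0.494, median 0.325) and had a median of -0.08 over 97 pairs of other experiments, so the experiment pairs the libraries. No 2 libraries of a group agreed within sampling noise (chi-square over its degrees of freedom of 27.0 or more in 32 pairs). Depth is counted in expected counts, and intervals cover the spread between libraries.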

Additional observations from a re-analysis of the deposited data

Results flagged for a closer look

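Within groups of 4 or 5 libraries, the normalized counts of the 10 genes were examined for a single library far from the others, in 40 groups of values. The measure was the gap to the nearest other library over the range of the group. A chance rate of about 1 in 20 would hold for independent values only, whereas the 10 genes share the same 18 libraries. The 5 values found all belong to experiment C. *Dusp1* had 1000 normalized counts in repeat DMSO replicate C, against 270.5 to 312 in the other libraries of that group. In single DMSO replicate C *Dusp1* had 1741, against 159 to 351, and in single ibrutinib replicate C it had 2188, against 146 to 312. *Dusp6* had 744 normalized counts in single DMSO replicate C, against 190.4 to 330, and 727 in single ibrutinib replicate C, against 97.7 to 192.

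The effect of ibrutinib differed between repeat and single peptide stimulated cells for 5 of the named genes, beside 1.26% of all genes, by the interaction term of edgeR's quasi-likelihood test with Benjamini-Hochberg adjustment over all genes. The difference in log2 fold change was -1.15 for *Dusp5* (adjusted p = 0.0126). The other 4 genes had been named for a small p-value with ibrutinib in repeat peptide cells, an effect that enters this difference, so their values are a description. The difference was 1.04 for *Rasgrp2* (adjusted p = 0.0419), 1.32 for *Gab3* (adjusted p = 0.0490), 1.19 for *Rasa3* (adjusted p = 0.0126) and 1.26 for *Mapk11* (adjusted p = 0.0464).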

How the results depend on the processing

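In repeat peptide cells with ibrutinib, *Dusp5* and *Spry2* kept their direction and their call under every alternative run. The number of the 10 genes called there was 3 by limma on log2(TPM + 1) and with only the compared groups, when *Dusp4* was added, 4 with the replicate block, with and without experiment C, and 2 to 4 when single libraries were left out (4 without repeat ibrutinib replicate C). In single peptide cells it was 1 with the block and without experiment C and 0 to 1 with single libraries left out (1 without single ibrutinib replicate B). For the interaction it was 0 by limma on log2(TPM + 1) and log2(TPM + 0.1), where the adjusted p of *Dusp5* was 0.125 and 0.149, and 2 with the block and without experiment C, when *Dusp2* was added (-0.63, adjusted p = 0.0467). The 7 genes called between repeat and single peptide cells were kept under each alternative, and the block changed no call other than those given in the report and here. The cause of these changes was not tested. The expression table holds few counts for *Dusp4* and *Spry2* in single peptide cells, which limits their fold changes there, and *Dusp1* and *Dusp6* are limited by the spread between experiments.

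Fold changes that changed sign had no call under the alternative that turned them. On the log2 scale, ibrutinib in repeat peptide cells gave *Dusp1* -0.024 with the length offset, -0.35 with the block, -0.26 and -0.30 by limma with a pseudocount of 1 and 0.1, -0.49 with the block and without experiment C, and -0.55 to 0.71 without 1 library. *Dusp2* gave -0.18 with the block, -0.14 by limma with either pseudocount, -0.0034 without experiment C, -0.26 with the block and without experiment C, and -0.17 to 0.10 without 1 library. In single peptide cells *Dusp1* gave -0.053 with the block, -0.13 without experiment C, -0.26 with both, and -1.36 to 1.63 without 1 library, while *Dusp5* gave -0.0059 and -0.0071 by limma and -0.036 to 0.17 without 1 library. *Dusp6* gave -1.27 to 0.24 without 1 library and was called with the block and without experiment C (-0.81, adjusted p = 0.0258). *Spry1* gave -0.0093 and -0.0050 by limma, -0.0096 without experiment C, -0.0053 with the block as well, and -0.14 to 0.23 without 1 library.

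Between repeat and single peptide cells *Dusp1* gave 0.057 with the block, 0.42 and 0.49 by limma, 0.38 without experiment C, 0.33 with the block as well, and -0.84 to 1.06 without 1 library, and *Dusp10* gave 0.073 and 0.082 by limma, 0.013 without experiment C, 0.018 with the block as well, and -0.18 to 0.012 without 1 library. For the interaction, without experiment C *Dusp1* gave 0.27 and *Dusp6* 0.14, and *Spred1* gave 0.040 with the block and 0.056 with the block and without experiment C. Without 1 library the interaction was -1.60 to 1.41 for *Dusp1*, -0.51 to 0.42 for *Dusp4*, -0.75 to 0.77 for *Dusp6*, -0.22 to 0.040 for *Spred1* and -0.030 to 0.27 for *Spred2*.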

Other observations

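Among the Ras regulators called when repeat were set against single peptide cells under DMSO (47.0% of all genes were called), the 4 named here were chosen after their values were seen. *Gab2*, an adaptor that recruits signalling enzymes, was the 1 of 12 activators and adaptors that rose while 9 fell, by a log2 fold change of 2.82 (SE 0.400, adjusted p = 1.33e-05 by edgeR's quasi-likelihood test with Benjamini-Hochberg adjustment over all genes). Of 10 Ras GTPase activating proteins 3 rose and 3 fell. *Nf1*, which encodes neurofibromin, the Ras inhibitor that Spred proteins bring to the membrane, rose by 1.64 (SE 0.267, adjusted p = 5.57e-05). *Rasal2* rose by 3.18 (SE 0.554, adjusted p = 0.000109), whereas *Rasa4* fell by 2.04 (SE 0.158, adjusted p = 1.08e-08). None of these 4 genes was called with ibrutinib in repeat peptide cells.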
